A study of Danio rerio with 6 samples.

Results

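AP-1 is a dimeric transcription factor built from Fos, Jun and related basic leucine zipper (bZIP) proteins, and the genes described here are its Fos-type, Jun-type and Atf3 members in zebrafish cardiac endothelial cells. They were chosen by name, as every gene ID whose zebrafish name is fosab, fosb, fosl1a, fosl2, jun, junba, junbb, jund or atf3, with human-style names and copy letters allowed. This gave 9 IDs of the 32520 in the count tables: FOS (ENSDARG00000031683), FOSB, FOSL1 and FOSL2 of the Fos type, JUN, JUND and 2 IDs named JUNB (ENSDARG00000074378 and ENSDARG00000104773) of the Jun type, and ATF3 (ENSDARG00000007823). The name table does not say which JUNB ID is junba and which is junbb. Some further IDs of the same families fall outside the rule. Of these, fosaa, fosl1b and fosl2l had 0 counts in all 6 libraries, where a count of 0 allows up to 3 counts per library, and june had 4 counts in the CtrlK libraries and 5 in the DNK libraries.

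Jun proteins can pair with one another or with Fos proteins, whereas Fos proteins bind DNA as partners of Jun. FOS, FOSB, JUN and JUNB are classical immediate-early genes, switched on within minutes by growth factors, cytokines, shear or stress through MAP kinases, while JUND is made more steadily in many cells and FOSL1 and FOSL2 are often induced later. Atf3 is a stress-induced bZIP protein that can pair with Jun. In endothelium AP-1 takes part in responses to flow, inflammation and VEGF, and AP-1 motifs are known from regeneration-responsive enhancers in zebrafish and killifish.

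RNA-seq libraries were made from kdrl:eGFP positive endothelial cells, sorted from ventricles of about 15 adult zebrafish hearts of strain Tu at 7 days after ventricular resection. DNK fish carried 3 transgenes: kdrl:CreER, kdrl:eGFP and ubi:loxp-DsRed-stop-loxp-DN-xBrg1. Recombination in cells that use the kdrl promoter lets them make a dominant-negative form of Xenopus Brg1, the motor protein of SWI/SNF, which remodels chromatin. CtrlK fish carried the same loxP transgene and reporter without kdrl:CreER, and both groups received 4-HT (4-hydroxytamoxifen) for 3 days before resection according to the treatment protocol, although other labels call CtrlK untreated or wild-type siblings. Effects of the Cre driver, and of 4-HT if CtrlK was untreated, cannot be told apart from those of dominant-negative Brg1. Each group had 3 libraries of pooled ventricles, and the labels leave unsaid whether each was a pool of its own. The spread that p-values rest on is therefore that between libraries, and it may be technical.

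The libraries held 174371 to 227373 counts assigned to genes, so that 3 counts equal 16.2 to 19.4 normalised CPM (CPM, read counts relative to the library's total after TMM scaling). The reads assigned to genes were 1.15% ± 0.108 of the total for CtrlK and 1.48% ± 0.00638 for DNK (SD, n = 3 per group). All other reads, in the 5 rows that name no gene, are called reads outside genes below. They include reads of too low alignment quality, which were 58.0% to 59.2% of each library's total. Endothelial markers were present in part, as 10 of 21 listed IDs had enough counts to be tested. Their log2 fold changes, DNK against CtrlK, were positive for 8 and negative for 2. Among them, cdh5 (VE-cadherin) was at 729 ± 309 CPM in CtrlK against 1008 ± 168 in DNK, and kdrl at 49.8 ± 11.5 against 75.6 ± 11.4. The marker flt1 was at 310 ± 74.2 against 196 ± 37.8 (SD, n = 3 per group). kdrl was low, and reached the floor of the filter on low counts in 1 CtrlK and 3 DNK libraries. In RNA of pooled cells, fewer cells that express a gene and less of its RNA per cell cannot be told apart.

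The AP-1 genes that rose in DNK were JUND, FOSL2 and FOSL1, by 2.05-, 2.07- and 3.13-fold. FOSB and JUNB ENSDARG00000104773 were also higher in all 3 DNK libraries than in any CtrlK library but did not pass over all genes, and FOS and ATF3 overlapped between the groups. Of the 9 members 7 had enough counts to be tested, and 3 of the 7 were called at an adjusted p below 0.05 (edgeR quasi-likelihood test, Benjamini-Hochberg adjustment over all 3792 genes tested), all 3 of them higher. Over all tested genes 7.12% were called, 4.72% higher and 2.40% lower. DESeq2 and limma-voom also called 3 members each. FOSB and JUNB ENSDARG00000104773 passed the filter on low counts only through the DNK libraries, so their presence among the tested members already depends on a high DNK level.

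**Figure D1:**
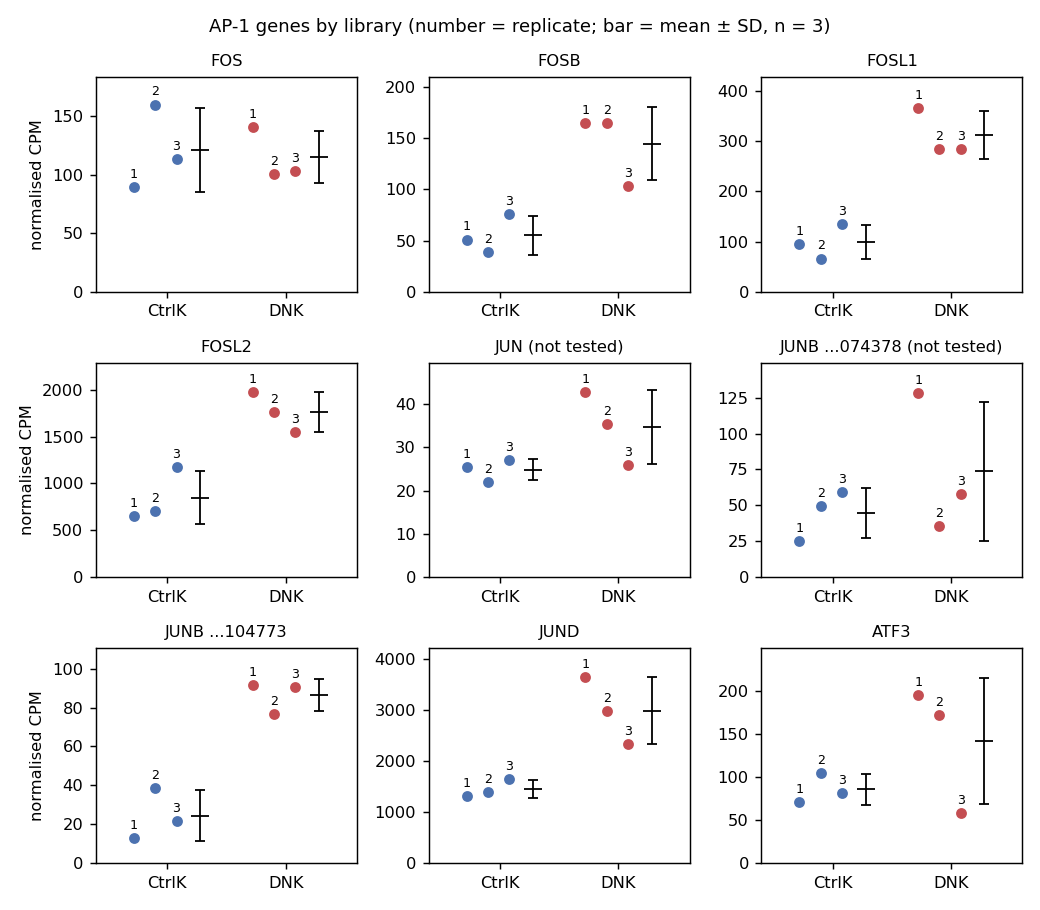
Normalised CPM (y axes, each starting at 0) of the 9 AP-1 genes in the 3 CtrlK and 3 DNK libraries, with the replicate number above each point and the mean ± SD beside each group. The DNK points lie above all CtrlK points for FOSB, FOSL1, FOSL2, JUND and JUNB ENSDARG00000104773, and overlap with them for FOS, JUN, JUNB ENSDARG00000074378 and ATF3.

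Among the Fos-type genes, FOSL2 (Fra-2) held the most counts, 450 in CtrlK and 861 in DNK. Its level was 657, 711 and 1176 normalised CPM in CtrlK replicates 1, 2 and 3 and 1971, 1760 and 1553 in DNK replicates 1, 2 and 3. The groups did not overlap, and CtrlK replicate 3 stood nearest to DNK. The mean rose from 848 ± 285 to 1761 ± 209 CPM (SD, n = 3 each), by 1.05 ± 0.29 in log2 units (SE, adjusted p = 0.0402). The FOSL2 call did not hold without CtrlK replicate 1 (adjusted p = 0.103) or 2 (0.127) and without DNK replicate 1 (0.140), 2 (0.102) or 3 (0.0738), over a range of 0.00949 to 0.999 across all alternatives. Leaving out a library left fewer libraries in its group and changed the number of genes tested (4246 to 4456 instead of 3792). A lost call in such a fit does not by itself show a smaller effect.

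FOSL1 (Fra-1), a Fos protein without the C-terminal transactivation domain of FOS, had the largest log2 fold change of the called members. It stood at 95.7, 66.2 and 135 CPM in CtrlK replicates 1, 2 and 3 and at 366, 283 and 285 in DNK replicates 1, 2 and 3. Every DNK library had at least 44 counts of FOSL1 and no CtrlK library more than 25. The mean rose from 98.9 ± 34.5 to 311 ± 47.4 CPM (SD, n = 3 each), by 1.65 ± 0.38 in log2 units (SE, adjusted p = 0.0193). This call did not hold when replicate 1 (adjusted p = 0.0534) or 2 (0.0690) of CtrlK, or replicate 1 of DNK (0.0775), was left out. Across all alternatives the adjusted p ran from 0.00717 to 0.909.

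FOSB, which encodes a Fos protein known for its stable splice form in neurons of mammals, was counted at 51.1, 38.6 and 75.5 CPM in CtrlK replicates 1, 2 and 3 and at 165, 165 and 104 in DNK replicates 1, 2 and 3. Its groups did not overlap, but counts were low, 29 in CtrlK and 71 in DNK. The log2 fold change of FOSB was 1.38 ± 0.46 (SE), which did not pass (adjusted p = 0.0835).

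FOS, the founding member, overlapped between the groups. Its values were 89.3, 160 and 113 CPM in CtrlK replicates 1, 2 and 3 and 140, 100.4 and 104 in DNK replicates 1, 2 and 3, with both the lowest and the highest value in CtrlK. The log2 fold change of FOS was −0.08 ± 0.43 (SE, adjusted p = 0.922), and its sign changed in 6 of 17 alternatives. In the RefSeq table of another assembly (GRCz12tu) fosab overlaps the span of 1 other gene, si:ch211-153j24.3 (ENSDARG00000068428), and the strand setting of the counting is not given in the sources used here. That gene had a single count in the 6 libraries together. In the same table fosl2 and junbb each overlap the span of 1 long non-coding RNA gene, LOC141378444 and LOC141381122, by an extent not measured here. No Ensembl ID was found for these in the name table, so reads shared with FOSL2 or with one JUNB ID were not measured.

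Among the Jun-type genes, JUND held the most counts, 765 in CtrlK and 1460 in DNK. JUND, the Jun protein that in mammals restrains proliferation in several cell types and protects against oxidative stress, stood at 1315, 1395 and 1651 CPM in CtrlK replicates 1, 2 and 3 and at 3637, 2976 and 2329 in DNK replicates 1, 2 and 3. The groups did not overlap, and the DNK libraries spread more widely than the CtrlK libraries. The mean rose from 1453 ± 175 to 2981 ± 654 CPM (SD, n = 3 each), by 1.04 ± 0.26 in log2 units (SE, adjusted p = 0.0269). The JUND call held without CtrlK replicate 3 or DNK replicate 3. It did not hold when CtrlK replicate 1 (adjusted p = 0.0552) or 2 (0.0899) or DNK replicate 1 (0.138) or 2 (0.0821) was left out, and across all alternatives the adjusted p ran from 0.00619 to 0.832.

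The JUNB IDs, copies of a Jun gene that in mammals often acts against JUN in growth control, had few counts. JUNB ENSDARG00000104773 had 2, 7 and 4 counts in CtrlK replicates 1, 2 and 3 and 15, 13 and 14 in DNK replicates 1, 2 and 3. These are 24.3 ± 13.1 and 86.3 ± 8.26 CPM (SD, n = 3 each), and the log2 fold change of 1.78 ± 0.56 (SE) did not pass (adjusted p = 0.0652), except with libraries scaled to reads outside genes (0.0453). JUNB ENSDARG00000074378 had 4, 9 and 11 counts in CtrlK and 21, 6 and 9 in DNK and fell below the filter on low counts. It was highest in DNK replicate 1, and the other DNK libraries lay within the range of CtrlK. The ratio of its summed counts, DNK over CtrlK, was 1.61 (95% counting interval 0.934 to 2.82). With no filter its log2 fold change was 0.80 (edgeR adjusted p = 0.680), and it was 0.45 to 1.07 in the 4 fits without one library that kept it (adjusted p = 0.338 to 0.716). The copies can share reads, which the counting may have dropped or split.

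JUN, the gene most often studied as the partner of FOS, was close to the limit of detection. It had 4, 4 and 5 counts in CtrlK replicates 1, 2 and 3 and 7, 6 and 4 in DNK replicates 1, 2 and 3, and fell below the filter on low counts. The ratio of its summed counts, 13 in CtrlK and 17 in DNK, was 1.40 (95% counting interval 0.642 to 3.14), so a difference was not detectable at this depth. With no filter its log2 fold change was 0.58 (edgeR adjusted p = 0.762). Counting intervals and floors cover counting error only, since reads amplified without molecular identifiers are not independent molecules.

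ATF3 had 11, 19 and 15 counts in CtrlK replicates 1, 2 and 3 and 32, 29 and 9 in DNK replicates 1, 2 and 3. DNK replicates 1 and 2 lay above every CtrlK library and DNK replicate 3 below every one. The means were 85.3 ± 17.7 and 142 ± 73.2 CPM (SD, n = 3 each), and the log2 fold change of ATF3, 0.73 ± 0.49 (SE), did not pass (adjusted p = 0.383).

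**Figure D2:**
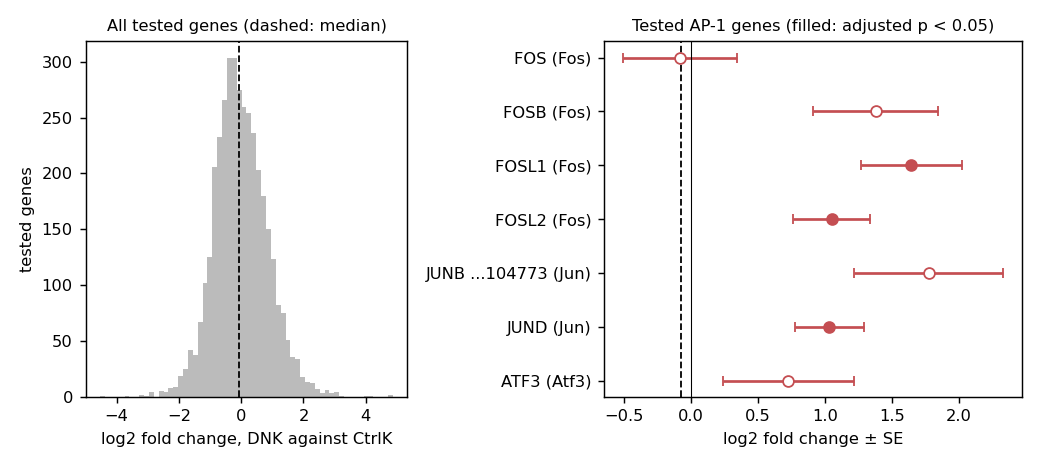
Left, number of tested genes (y axis) by log2 fold change, DNK against CtrlK (x axis), with the median of −0.07 dashed. Right, log2 fold change ± SE of the 7 tested AP-1 genes, filled where the adjusted p is below 0.05; 6 of them lie above 0 and FOS lies at −0.08.

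Seen together, 6 of the 7 tested members had positive log2 fold changes, against 46.9% of all tested genes, with a median of 1.05 against −0.07. For 5 of the 7 every DNK library lay above every CtrlK library, as for 16.2% of all tested genes. Both counts include the members that passed the filter only through DNK, so they describe the tested members and not the family. The scaling of the libraries set the size of the changes. With summed counts of the 200 most abundant genes as library sizes, the median of all tested genes moved by −0.78 and the log2 fold changes were 0.24 for JUND, 0.29 for FOSL2, 0.87 for FOSL1 and −0.07 for ATF3, with no member called. Relative to the median of all tested genes, JUND was at 1.11 as reported and at 1.09 with libraries scaled to reads outside genes. With the 200 most abundant genes as the base instead, FOSL2 went from 1.13 to 1.15 in this measure, FOSL1 from 1.72 to 1.73 and ATF3 from 0.80 to 0.79. A change of scaling moves all genes nearly alike, so this measure could hardly change and is no test of the members.

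The comparison of Fos-type with Jun-type genes does not depend on scaling when it is made within a library. The Fos-type share of all Fos-type and Jun-type counts was 39.3%, 39.3% and 46.0% in CtrlK replicates 1, 2 and 3 and 40.4%, 42.5% and 45.0% in DNK replicates 1, 2 and 3, with 356 to 1072 counts behind each. The groups overlapped, at 41.6% ± 3.87 and 42.6% ± 2.28 (SD, n = 3 each). Summed over the IDs, the Fos-type genes went from 1123 ± 329 to 2332 ± 300 CPM and the Jun-type genes from 1547 ± 193 to 3175 ± 699 (SD, n = 3 each). These sums are mostly FOSL2, with 75.0% ± 3.02 of the Fos-type counts in CtrlK and 75.6% ± 0.868 in DNK, and JUND, with 94.0% ± 1.35 and 93.9% ± 1.23 of the Jun-type counts. JUND had 2.00, 1.96 and 1.40 counts per FOSL2 count in CtrlK replicates 1, 2 and 3 and 1.85, 1.69 and 1.50 in DNK replicates 1, 2 and 3, again overlapping. Counts of different genes were not divided by transcript length, so these shares compare libraries and not the levels of the genes.

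Within the Fos-type counts the smaller members differed. FOS made up 10.0%, 16.4% and 7.55% of the Fos-type counts in CtrlK replicates 1, 2 and 3 and 5.31%, 4.35% and 5.06% in DNK replicates 1, 2 and 3. FOSL1 made up 10.7%, 6.78% and 8.99% in CtrlK and 13.9%, 12.3% and 13.9% in DNK. The share of FOS, though not its level, was thus lower in each DNK library and that of FOSL1 higher. Shares of FOSB (3.95% to 5.71% and 5.06% to 7.16%) and FOSL2 overlapped. Within the Jun-type counts the share of JUN was lower in DNK too, at 1.47% to 1.85% in CtrlK and 1.03% to 1.13% in DNK, on 4 to 7 counts per library. How often such shares separate for other genes was not measured. FOSL1 had 1.07, 0.414 and 1.19 counts per FOS count in CtrlK replicates 1, 2 and 3 and 2.61, 2.82 and 2.75 in DNK replicates 1, 2 and 3, with 12 to 60 counts of FOSL1 and 14 to 29 of FOS behind each ratio. Of the tested Fos-type genes these had the largest and the smallest log2 fold change, so the separation of this ratio follows from the choice of pair. A share of one member falls when another rises, and the differences between members were not tested. The 95% Wilson intervals of the FOS share in CtrlK replicates 1 (6.05% to 16.1%) and 3 (4.99% to 11.3%) overlapped that of each DNK library (2.73% at the lowest to 8.07% at the highest). That of CtrlK replicate 2 (11.7% to 22.5%) did not. For FOSL1 the interval of every CtrlK library (upper ends 11.5% to 16.9%) overlapped that of every DNK library (lower ends 9.39% to 10.9%).

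**Figure D3:**
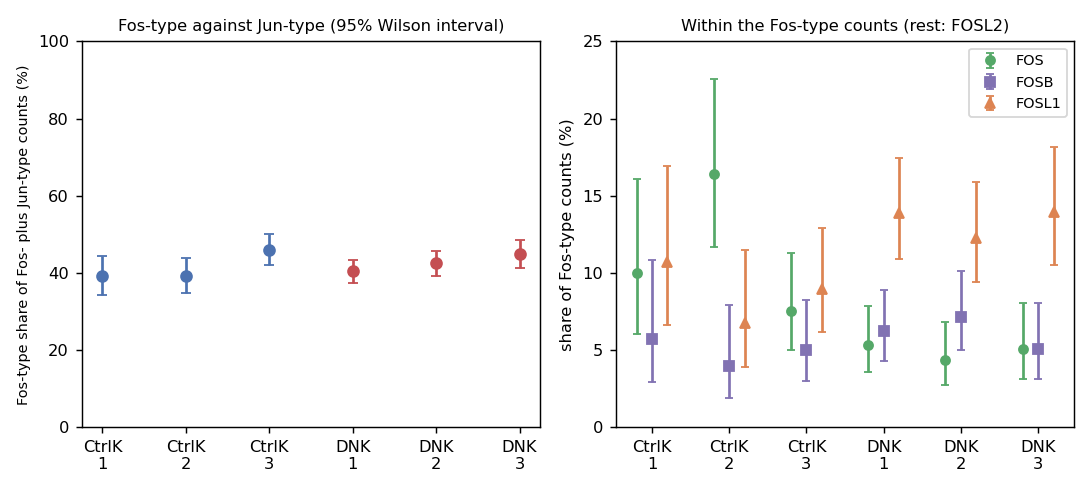
Left, Fos-type share of Fos-type plus Jun-type counts (y axis, percent) in each library with its 95% Wilson interval, 39.3% to 46.0% in CtrlK and 40.4% to 45.0% in DNK. Right, shares of FOS, FOSB and FOSL1 in the Fos-type counts; FOS lies at 7.55% or more in CtrlK and 5.31% or less in DNK, FOSL1 at 10.7% or less and 12.3% or more.

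The members also differed among libraries of one group. DNK replicate 1 had the highest DNK value for 6 of the 7 tested members, as for 33.7% of all tested genes, and DNK replicate 3 the lowest for 4. In CtrlK, replicate 1 was the lowest for 5 of the 7 (35.2% of all tested genes) and replicate 3 the highest for 4. The inducible chaperone gene hsp70.3 was likewise highest in DNK replicate 1 (1883, 2145 and 3161 CPM in CtrlK replicates 1, 2 and 3, and 11374, 6572 and 8184 in DNK replicates 1, 2 and 3). Reads outside genes (all rows that name no gene, low-quality reads included) ran from 77.5 to 91.7 per gene count in CtrlK and from 66.5 to 67.1 in DNK. This ratio therefore separates the groups too. Its part and that of heat shock in the AP-1 result were not tested. With the ratio as a covariate edgeR called 0 of the 7 members and 1 gene in all (249 at an unadjusted p under 0.05). A covariate that nearly follows the group leaves little of the group difference to test, so this loss of calls says little about the members.

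The genes whose log2 values over the 6 libraries ran closest to each member, by the root-mean-square difference of centred log2 CPM, were maff and HDLBP for JUND (0.08 and 0.09), EIF4G1 and HSP90AA1 ENSDARG00000024746 for FOSL2 (0.08 and 0.10), and notch2 and MAFK ENSDARG00000100947 for FOSL1 (0.10 each). For JUNB ENSDARG00000104773 they were SOCS3 ENSDARG00000026611 and MTREX (0.17 and 0.18), for FOSB BTG1 and DDX6 (0.13 and 0.16), for ATF3 NCAM1 ENSDARG00000056181 and EGLN3 (0.16 and 0.20), and for FOS TFAP2A and relb (0.08 and 0.09). maff and MAFK encode small Maf proteins, bZIP factors that lack a transactivation domain. MAFK stood at 185, 110 and 243 CPM in CtrlK replicates 1, 2 and 3 and at 647, 543 and 453 in DNK replicates 1, 2 and 3, a separation of the groups that its choice by likeness to FOSL1 already implies. This measure favours genes with many counts and describes 6 libraries in 2 groups. Still, maff had few counts, at 25.5, 27.6 and 37.8 CPM in CtrlK replicates 1, 2 and 3. It reached the filter's floor in 0 CtrlK and 3 DNK libraries, so it was among the tested genes only through its DNK level.

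Other bZIP genes, which include partners and competitors of AP-1, rose in part. Of 48 listed IDs 19 could be tested, 4 rose, 0 fell and 16 had positive log2 fold changes (median 0.68), where 4.72% of all tested genes were called higher, 2.40% lower and 46.9% were positive. Of the 19, 4 did not reach the filter's floor of 47.2 CPM (by library size alone) in all 3 CtrlK libraries, among them creb1a and NFE2L2 ENSDARG00000042824, which are 2 of the 4 that rose. These 4 were all positive, and such genes enter the test at least in part through their DNK level. creb1a, which encodes a cAMP-responsive factor, rose from 41.0 ± 18.1 to 203 ± 41.9 CPM (SD, n = 3 per group), by 2.30 ± 0.48 in log2 units (SE, edgeR adjusted p = 0.0135). The other ID of this factor, CREB1 ENSDARG00000093420, was at 231 ± 32.6 CPM in CtrlK and 269 ± 34.6 in DNK. Its log2 fold change was 0.22 ± 0.33 (SE, edgeR adjusted p = 0.720). NFE2L2 ENSDARG00000042824 (Nrf2), regulator of antioxidant genes, rose by 1.99 ± 0.49 (adjusted p = 0.0259), MAFK, which can pair with Nrf2, by 1.61 ± 0.36 (0.0168), and XBP1, a factor of the unfolded protein response, by 1.37 ± 0.35 (0.0292). The creb1a call was kept whichever library was left out, whereas that of XBP1 held only without CtrlK replicate 3 and gave adjusted p-values of 0.0622 to 0.106 without any of the others. That of NFE2L2 was lost without CtrlK replicate 2 (0.0989) or 3 (0.0542), without DNK replicate 1 (0.0808) or 2 (0.0911) and with limma-voom (0.110), and that of MAFK without CtrlK replicate 2 (0.0589) or DNK replicate 1 (0.0640). Of the Batf-type genes, chosen here after their values were seen, BATF had 1 count in all, in DNK, while batf2 and BATF3 had 0 counts in every library.

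Transcripts of the kinases and factors that switch AP-1 genes on did not pass the test. Of 43 IDs for MAP kinases, their upstream kinases and the serum response factor pathway, 12 could be tested and edgeR called 0, with 2 at an unadjusted p under 0.05 and 0 by DESeq2 or limma-voom. Their median log2 fold change was −0.27, with 4 positive and 8 negative. The summed level of the 43 IDs was 2336 to 2443 CPM in CtrlK and 1921 to 2320.5 in DNK, and this difference was not tested. The nearest libraries of the groups were almost alike, and such sums depend on the scaling. Of the 12, 5 were below the filter's floor in at least 1 DNK library and 3 in at least 1 CtrlK library. The log2 fold change was −1.11 ± 0.45 for MRTFB, a coactivator of serum response factor (adjusted p = 0.145), and −0.98 ± 0.45 for MAPK9, a JNK kinase that phosphorylates Jun (adjusted p = 0.187). MRTFB and MAPK9 reached the floor in all 3 CtrlK but in 0 DNK libraries. Their negative sign is therefore partly set by the filter. Activity of these kinases lies in their phosphorylation, which RNA counts do not measure. Of 9 IDs for MAP kinase phosphatases, feedback inhibitors of the same kinases, 3 could be tested and edgeR called 0, with 1 at an unadjusted p under 0.05 and 0 by DESeq2 or limma-voom. The values were 1.14 ± 0.41 for DUSP8 ENSDARG00000009299 (adjusted p = 0.0995) and 1.00 ± 0.60 for DUSP1 (adjusted p = 0.320), as log2 fold change ± SE. Of the 3 phosphatase genes tested, 2, among them DUSP1, were below the filter's floor in at least 1 CtrlK library, and both were positive.

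Of 57 IDs for other immediate-early genes 23 could be tested, and 3 rose, 0 fell and 15 were positive (median 0.63), against 4.72% called higher, 2.40% called lower and 46.9% positive over all tested genes. Of the 23, 7 were below the filter's floor in at least 1 CtrlK library, 6 of them positive and 0 called. SOCS3 ENSDARG00000026611, a feedback inhibitor of cytokine signalling, rose from 790 ± 254 to 1878 ± 222 CPM (SD, n = 3 per group), by 1.25 ± 0.29 in log2 units (SE, edgeR adjusted p = 0.0202). For the other SOCS3 ID, ENSDARG00000025428, the log2 fold change was 0.19 ± 0.50 (SE, edgeR adjusted p = 0.836). ZFP36L2, which promotes decay of AU-rich mRNAs, rose by 1.33 ± 0.37 (adjusted p = 0.0425) and the stress-responsive kinase gene PLK3 by 1.24 ± 0.35 (adjusted p = 0.0451). The SOCS3 call was lost without DNK replicate 1 (0.0839) or 2 (0.0591), that of PLK3 held only without CtrlK replicate 3 (0.0891 to 0.133 without any of the others), and that of ZFP36L2 held only without DNK replicate 3 (0.0503 to 0.158 without any of the others).

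Genes reported elsewhere as AP-1 targets were divided. Of 47 listed IDs 15 could be tested, 1 rose, 0 fell and 10 were positive, with a median log2 fold change of 0.04. A single call among 15 is near the share of all tested genes, 7.12% called and 4.72% called higher, so the count says nothing particular about these genes. The gene that rose was krt8, a keratin of intermediate filaments, from 1691 ± 508 to 4403 ± 556 CPM (SD, n = 3 per group), by 1.38 ± 0.27 in log2 units (SE, edgeR adjusted p = 0.00996), and its call was kept whichever library was left out. DESeq2 called 3 members of this list and limma-voom 1. The summed level of the 47 IDs was 3963 to 6327 CPM in CtrlK and 8207 to 9464 in DNK, much of it krt8, and this difference was not tested.

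**Figure D4:**
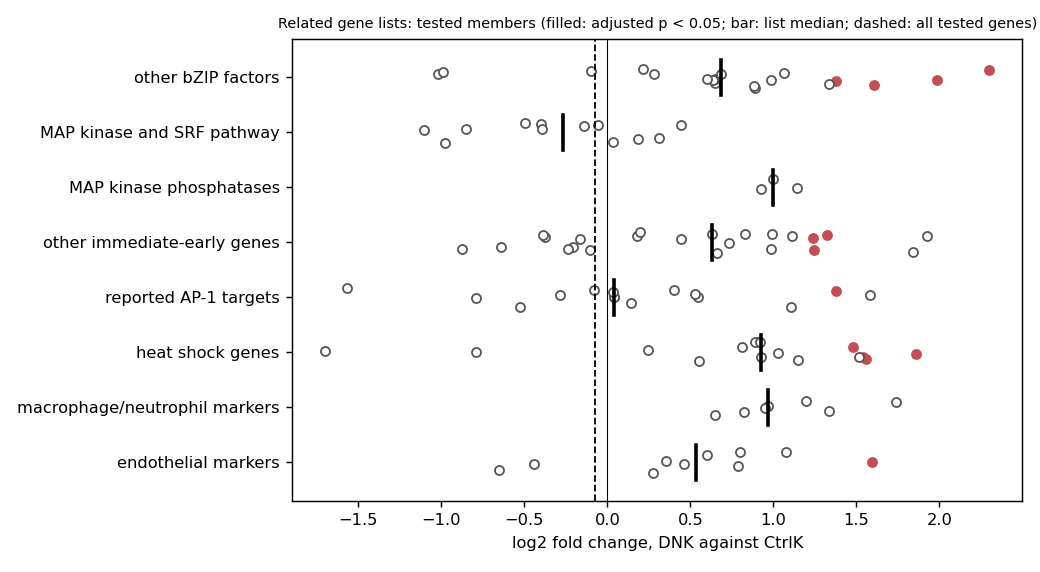
Log2 fold change, DNK against CtrlK (x axis), of the tested genes of 8 lists related to AP-1 or used as markers (y axis), filled where the adjusted p is below 0.05, with the list median as a bar and the median of all tested genes (−0.07) dashed. The list medians run from −0.27 for MAP kinase and SRF pathway genes to 1.00 for MAP kinase phosphatases. Both of these medians rest in part on genes below the filter's floor in at least 1 library.

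Stress and other cell types were measured beside these results because dissociated and myeloid cells can also express AP-1 genes. The counts for these lists stand beside 4.72% called higher, 2.40% called lower and 46.9% positive over all tested genes. Of 20 IDs for heat shock and related stress genes, the polyubiquitin genes ubb and ubc among them, 16 could be tested. Of these, 4 rose (hsp70.3 by 1.86 ± 0.28, hsp70l by 1.56 ± 0.29, hsp70.1 by 1.54 ± 0.30 and ubc by 1.48 ± 0.39 on the log2 scale, edgeR adjusted p = 0.00446, 0.00863, 0.00988 and 0.0344) and 14 were positive. The summed level of the list was 7314 to 12288 CPM in CtrlK and 20454 to 31486 in DNK. Much of this sum was hsp70.3, hsp70l and hsp70.1, with means of 2396, 2665 and 1100 CPM in CtrlK and 8710, 7844 and 3197 in DNK. Of the 16, 4 were below the filter's floor in at least 1 CtrlK library, 3 of them positive and 0 called. Without DNK replicate 1 the calls of hsp70.1 (adjusted p = 0.0519) and ubc (0.0827) were lost, and that of ubc held only without CtrlK replicate 3 (0.0781 to 0.104 without any of the others). Of 24 macrophage and neutrophil IDs 7 could be tested, all 7 were positive and edgeR called 0, with 4 at an unadjusted p under 0.05 and 0 by DESeq2 or limma-voom, and 3 were at 0 counts. Of the 7, 5 (SPI1 ENSDARG00000000767, spi1a, NCF1, marco and MFAP4) were below the filter's floor in at least 1 CtrlK library, so that their positive sign is partly set by the filter. Those with the smallest p were SPI1 ENSDARG00000000767, which encodes PU.1 (log2 fold change 1.74 ± 0.52, adjusted p = 0.0541), and cd74a, of antigen presentation (0.97 ± 0.31, adjusted p = 0.0681). The summed level of the myeloid list was 862 to 1624 CPM in CtrlK and 2109 to 2303 in DNK. Much of that sum was cd74a and cd74b, with means of 286 and 402 CPM in CtrlK and 561 and 713 in DNK, and cd74b overlapped between the groups. The endothelial list, with 21 IDs of which 1 was at 0, was at 1998 to 2773 CPM in CtrlK and 3073 to 3767 in DNK, and 1 of 10 tested members, vwf, rose (log2 fold change 1.59 ± 0.36, edgeR adjusted p = 0.0179, at 0.0534 to 0.0620 when replicate 1 or 2 of CtrlK or replicate 1 of DNK was left out). Cardiomyocyte markers (19 IDs, 2 at 0, 1 of 6 tested, atp2a2a, called, 893 to 1251 and 1320 to 1701 CPM) and fibroblast and mural markers (22 IDs, 0 at 0, 2 of 15 tested, PDGFRB and COL1A2, called, 3347 to 4126 and 4606 to 5698 CPM) were higher in DNK as sums too. atp2a2a was below the filter's floor in all 3 CtrlK libraries, and its call was lost whichever library was left out (edgeR adjusted p = 0.0771 to 0.178). It was not called by DESeq2 (adjusted p = 0.0782) or limma-voom (0.171) either. The PDGFRB call was lost without CtrlK replicate 1 or 2 or DNK replicate 3 (0.0534 to 0.0915). That of COL1A2 held only without replicate 3 of either group (0.0603 to 0.0838 without any of the others). Erythroid and thrombocyte markers (12 IDs, 1 at 0, 0 of 1 tested called by edgeR, DESeq2 or limma-voom and 0 at an unadjusted p under 0.05) overlapped at 663 to 1117 and 653 to 789 CPM. The summed level of each of these lists except the last therefore moved in the same direction as JUND, FOSL2 and FOSL1, but their members did not all rise. Log2 fold changes were negative for 2 of 10 tested endothelial, 2 of 6 cardiomyocyte and 5 of 15 fibroblast and mural genes. The endothelial gene flt1 (−0.65 ± 0.34, edgeR adjusted p = 0.254) was lower in every DNK library than in any CtrlK library. The part of heat shock and of other cell types in the AP-1 result was not tested.

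**Figure D5:**
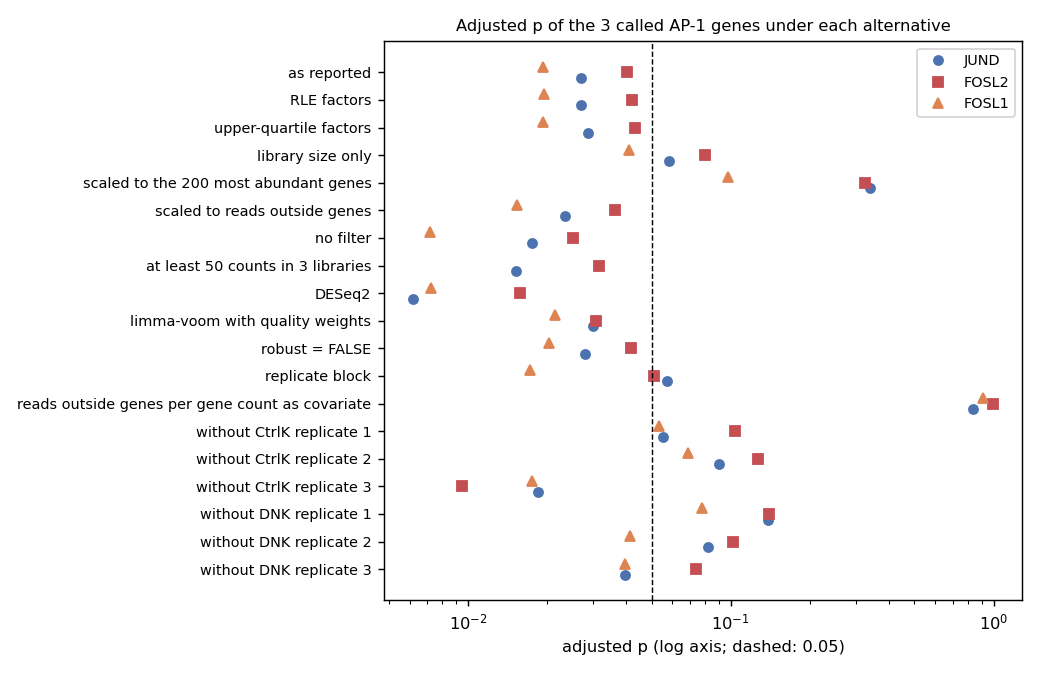
Adjusted p (x axis, log scale, 0.05 dashed) of JUND, FOSL2 and FOSL1 as reported and under each of the 18 alternatives (y axis); FOSL1 has no value with at least 50 counts in 3 libraries. All 3 lie left of the line as reported and under RLE or upper-quartile factors, DESeq2 and limma-voom, and right of it when scaled to 200 genes, with the covariate, without CtrlK replicate 1, without CtrlK replicate 2 and without DNK replicate 1.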

How the data were processed

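Sorted cells' RNA was amplified by MALBAC before library construction, per the labels. GRCz11 is the build that the submitters' processing notes name, beside DESeq2 1.22.2, HTSeq 0.6.1, HISAT2 2.1.0 and Trim Galore 0.6.0. The sources used here do not give the strand setting or the annotation release. The deposited files hold raw counts, a whole number per Ensembl gene. The 5 rows that name no gene held 98.8% ± 0.108 of each CtrlK and 98.5% ± 0.00638 of each DNK total (SD, n = 3 each) and were left out. Names came from a table that named 29201 of the 32520 IDs.

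Groups followed the sample titles. Genes kept by filterByExpr (3792) were tested with edgeR 4.0.16 in R 4.3.3 (TMM, glmQLFit with robust = TRUE), with p-values adjusted over all of them. SEs were derived from the F statistic (the log2 fold change over the root of F). Normalised CPM use the TMM-scaled library sizes, and log2 CPM a prior count of 2. Alternatives included DESeq2 1.42.0 and limma 3.58.1 (voom). The steps were tested on simulated data. No pair of libraries agreed within sampling noise (chi-square per degree of freedom at least 3.08). The members and gene lists were chosen with earlier results of these data known. List symbols were matched by name, if need be without the copy letter. All members are named; from each other list up to 4 called genes with the smallest p are named, or 2 as values if none was called, and not every gene so chosen is printed.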

Additional observations from a re-analysis of the deposited data

How the results depend on the processing

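Of the 18 alternatives, 10 left the count of called AP-1 members within 1.5 times of 3. It was 1 with library size only, 0 with the 200 most abundant genes as the base of scaling, 1 with the replicate block, 0 with reads outside genes per gene count as a covariate, and 0 to 3 when one library was left out. Over all genes, 179 were called higher and 91 lower. These counts were 112 and 248 with library size only, 55 and 1024 on the base of those 200 genes, and 1 and 0 with the covariate. The covariate nearly follows the group, so that fit says little about single genes, and the ranges of adjusted p across all alternatives include it. Scaled to reads outside genes, 231 were higher and 60 lower, with no filter 283 and 87, with at least 50 counts in 3 libraries 106 and 84, and with limma-voom 138 and 46. Leaving out one library gave 74 to 213 higher and 14 to 64 lower. Library size only moved the median of all tested genes by −0.31 and scaling to reads outside genes by 0.14.

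With library size only, JUND (adjusted p = 0.0580) and FOSL2 (0.0801) were no longer called, nor were XBP1, PLK3, ZFP36L2 and ubc (0.0673 to 0.0922). On the base of 200 genes creb1a (0.0508), MAFK (0.0979), NFE2L2 (0.0901) and SOCS3 (0.150) also lost their calls. No pairing by replicate number was seen. The deviations of same-numbered libraries correlated at −0.11, −0.00 and −0.04, and 0 of the 3 CtrlK libraries correlated best with its own number. With 3 libraries of low depth per group, these correlations cannot exclude a pairing. With the replicate block FOSL1 kept its call (0.0172), and JUND (0.0574) and FOSL2 (0.0512) lost theirs.

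The log2 fold change of FOS turned positive at 0.065 when scaled to reads outside genes, 0.030 with no filter, 0.26 with the covariate, and 0.20, 0.044 and 0.027 without CtrlK replicate 2, DNK replicate 2 or DNK replicate 3. Leaving out one library gave −0.22 to 0.20 for FOS. That of ATF3 turned to −0.071 on the base of 200 genes. Scaling to reads outside genes or to those 200 genes moves all genes alike, and relative to the median of all tested genes FOS went from −0.0043 to −0.0031 with the former and ATF3 from 0.80 to 0.79 with the latter. PLK3 turned to −0.32 with the covariate. The cause of the other changes of sign was not tested. Without FOSL2 and JUND, the Fos-type share was 74.8% in CtrlK and 74.8% in DNK, and leaving out one library gave 39.3% to 42.7% and 41.4% to 43.7%. As a mean of log2 CPM, Fos-type minus Jun-type IDs came to 0.72 ± 0.26 and 0.85 ± 0.17 (SD, n = 3 each).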
